A study of Mus musculus with 20 samples.

Results

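The genes of glucose uptake, glycolysis and the pentose phosphate pathway were described in T effector cells of the mouse spleen from which Pcbp2, an RNA-binding protein, had been deleted, and in their controls. The set holds 34 genes, chosen by symbol for their place in these pathways, and all 34 were found among the 49315 gene IDs of the count table. They comprise 2 glucose transporters, 10 genes of upper glycolysis, 3 that set fructose 2,6-bisphosphate, 7 genes of lower glycolysis, 2 lactate dehydrogenases, 4 genes of pyruvate dehydrogenase and its kinases, 4 genes of the pentose phosphate pathway and 2 regulators, Hif1a and Txnip. Each passed the filter on low counts, among 28082 genes tested.

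The cells were sorted by flow from spleen as CD4+CD25-, and bulk RNA-seq libraries were compared in 4 groups. CKO cells (Fl-Pcbp2/CD4cre, a floxed Pcbp2 gene with Cre driven by CD4) gave 3 libraries after 6 h with CD3/CD28 mouse T-activator beads, and CTL cells of littermates (Fl-Pcbp2, the floxed gene without Cre) gave 5. Unstimulated cells at 0 h gave 6 CKO and 6 CTL libraries. All groups carried the floxed allele, and no label gives strain background or age. The labels do not say how many animals a library holds, so p-values measure the spread between libraries.

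Glucose enters T cells through facilitative transporters and is trapped by hexokinase as glucose 6-phosphate. Glycolysis takes it to pyruvate, which lactate dehydrogenase reduces to lactate or pyruvate dehydrogenase, an enzyme that the Pdk kinases switch off, oxidises in mitochondria, while the pentose phosphate pathway uses the same glucose 6-phosphate to make NADPH and ribose. Activated T cells are known for raising glycolysis, with Myc and HIF-1 among the factors that drive its genes.

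Total counts per library were 65314747 to 76775918 in CKO 6 h, 26427467 to 69372546 in CTL 6 h, 68795932 to 85608113 in CKO 0 h and 70991619 to 79298656 in CTL 0 h. The CTL 6 h library numbered 4.24 was the shallowest and stood apart with a TMM scaling factor of 1.37, against 0.861 to 1.1 in the other 19 libraries. Pcbp2 had 7.27 to 11.3 CPM (counts scaled to a common library size) in CKO 6 h and 262 to 348 CPM in CTL 6 h, and 13.1 to 22.1 CPM in CKO 0 h and 261 to 396 CPM in CTL 0 h. Its difference was -5.23 log2 at 6 h (exact two-sided permutation test, p = 0.0179, the smallest that 3 against 5 libraries allow) and -4.30 at 0 h (exact p = 0.00216). All 6 CKO 0 h libraries are labelled male. In CTL 0 h, 4.29, 5.13 and 9.20 are labelled male and 4.24, 5.6 and 10.28 female. Sex label and genotype are thus partly confounded at 0 h, and the model's sex term follows these labels. Libraries 4.24 and 5.6 of CKO 0 h, labelled male, held Xist at 1160 and 1350 CPM and Ddx3y at 0.284 and 0.117 CPM. CKO 6 h 5.6 is labelled female. Calls that rest on CKO 0 h were therefore also fitted without CKO 0 h 4.24 and 5.6. The sex term is shared by all groups, so that fit can move CTL calls too. The 8 T cell markers were counted in every group and summed to 2570 to 2940 CPM in CKO 6 h, 2200 to 2830 in CTL 6 h, 5360 to 6550 in CKO 0 h and 4690 to 6090 in CTL 0 h. Il2ra, the CD25 chain that activated T cells raise, averaged 194 ± 101 CPM in CKO 6 h and 23.5 ± 8.6 CPM in CKO 0 h (SD, n = 3 and 6), and 176 ± 91.3 CPM in CTL 6 h and 16.2 ± 5.57 CPM in CTL 0 h (n = 5 and 6).

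Promoters are shown for 4 members, the hexokinase gene Hk2, the kinase gene Pdk1, the minor aldolase gene Aldoc and the regulator Txnip. They are RefSeq windows of GRCm38.p6 from 250 bases before to 50 after an annotated start, chr6:82774405-82774704 on the minus strand for Hk2, chr2:71872974-71873273 on the plus strand for Pdk1, chr11:78322823-78323122 on the plus strand for Aldoc and chr3:96557707-96558006 on the plus strand for Txnip. Where RefSeq lists several starts, the first is shown. Capitals mark the core of the HIF-1 motif, ACGTG or GCGTG, on either strand, so that a match on the other strand reads CACGT or CACGC. It was searched together with CACGTG, the E-box that Myc binds. Other E-box forms, including the paired ones that the MondoA-Mlx pair binds, were not searched or marked.
Hk2: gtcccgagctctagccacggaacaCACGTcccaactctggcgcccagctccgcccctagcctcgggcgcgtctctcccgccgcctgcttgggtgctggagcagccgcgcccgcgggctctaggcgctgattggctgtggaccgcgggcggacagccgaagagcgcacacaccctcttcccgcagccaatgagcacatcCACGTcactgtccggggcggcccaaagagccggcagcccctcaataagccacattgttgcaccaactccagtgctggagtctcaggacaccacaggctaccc
Pdk1: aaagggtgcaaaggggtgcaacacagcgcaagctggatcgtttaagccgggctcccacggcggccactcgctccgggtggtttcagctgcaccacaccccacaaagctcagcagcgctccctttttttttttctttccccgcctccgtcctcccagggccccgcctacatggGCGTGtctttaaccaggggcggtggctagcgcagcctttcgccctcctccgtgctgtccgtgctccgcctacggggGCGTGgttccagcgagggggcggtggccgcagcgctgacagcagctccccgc
Aldoc: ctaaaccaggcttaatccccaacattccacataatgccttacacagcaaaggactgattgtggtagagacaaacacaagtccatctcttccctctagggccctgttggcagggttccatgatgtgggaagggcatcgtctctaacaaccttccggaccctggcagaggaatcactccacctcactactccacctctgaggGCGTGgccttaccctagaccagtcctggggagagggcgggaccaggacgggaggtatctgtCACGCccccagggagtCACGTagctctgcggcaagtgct
Txnip: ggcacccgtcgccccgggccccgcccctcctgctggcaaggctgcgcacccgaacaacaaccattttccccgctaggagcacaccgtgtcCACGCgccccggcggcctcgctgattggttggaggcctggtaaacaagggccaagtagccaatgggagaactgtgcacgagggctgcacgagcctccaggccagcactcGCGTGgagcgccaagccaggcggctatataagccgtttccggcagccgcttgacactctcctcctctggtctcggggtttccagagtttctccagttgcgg
The HIF core lay in 40 of the 50 windows of the 33 members that matched RefSeq (80.0%), and in 14380 of all 32851 windows (43.8%). At least 1 window held it in 30 of the 33 genes. The remaining member, Slc2a3, had no window. CACGTG lay in 6 member windows (12.0%) and in 7.15% of all windows, and it always contains ACGTG. No window printed above held an E-box. The window of the enolase gene Eno2 and the second window of Pdk1, which are not printed, held neither motif. Windows of 1 gene can overlap, and a match is a run of letters, not a measured site. Both HIF cores hold the base pair step CG, and all windows were not matched to the members for base content or expression. The shares therefore do not test whether the members hold more HIF sites.

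From 0 h to 6 h with beads the members changed unevenly in both genotypes. No library was kept for 6 h without beads, so stimulation and time in culture cannot be told apart. In CKO cells 4 members rose and 10 fell, led by a rise of Hk2 to 4.51 times its 0 h level and falls of Aldoc to 0.358 and the transporter gene Slc2a3 to 0.367 times. Without the CKO 6 h library 11.18, which held the highest Hk2 level, the Hk2 fold in CKO was 2.72. In CTL cells 5 rose and 15 fell, and Hk2 stood at 5.23, Aldoc at 0.411 and Slc2a3 at 0.325 times. The test was edgeR's quasi-likelihood test with the sex label as a covariate. It had no term for the library number, so libraries of 1 number were treated as independent. Adjustment was Benjamini-Hochberg over all genes tested, with calls at an adjusted p under 0.05. Of all genes tested, 32.8% were called in CKO (19.6% higher, 13.1% lower) and 63.4% in CTL (41.6% higher, 21.7% lower). Of the 14446 genes with a mean of at least 1 CPM, 33.2% were called in CKO (11% higher, 22.2% lower) and 56.4% in CTL (18.2% higher, 38.2% lower), so the members' counts stood near those of well-expressed genes.

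The 6 h and 0 h libraries did not overlap for 14 members in CKO, 2 higher and 12 lower, against 47% of all genes (29.9% higher, 17.1% lower). In CTL they did not overlap for 12, 1 higher and 11 lower, against 29.9% (17.3% higher, 12.6% lower). The members' median change was -0.21 log2 in CKO and -0.21 in CTL. Over genes of at least 1 CPM the median was -0.11 in CKO and -0.19 in CTL, and over all genes tested 0.12 in CKO and 0.31 in CTL.

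That shift bears on small changes. Relative to the medians of genes of at least 1 CPM, Hk2 changed by 2.28 log2 in CKO and 2.58 in CTL, Slc2a3 by -1.34 and -1.43 and Pdk1 by -0.96 and -1.27. Refitted on those genes alone, where their median moved to -0.01 in CKO and 0.03 in CTL, the fit called 5 rises and 6 falls among the members in CKO and 9 rises and 12 falls in CTL. In bulk samples, fewer cells of a type and less RNA per cell cannot be told apart.

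Among markers of other cell types, falls outnumbered rises at 6 h for B cells, dendritic cells, myeloid cells, and natural killer and CD8 T cells. Of 10 myeloid markers 6 fell and 0 rose in each genotype. Of 7 B cell markers 4 fell in CKO and 6 in CTL, with sums of 18 to 78.7 CPM in CKO 6 h and 31.1 to 176 CPM in CKO 0 h, and of 14.2 to 51.8 CPM in CTL 6 h and 34.6 to 272 CPM in CTL 0 h. Of 6 dendritic cell markers 4 fell and 1 rose in CKO and 3 fell and 1 rose in CTL, with sums of 21.1 to 43.1 CPM in CKO 6 h and 48.4 to 211 CPM in CKO 0 h, and of 13.6 to 47.5 CPM in CTL 6 h and 24.5 to 173 CPM in CTL 0 h. Of 5 markers of natural killer and CD8 T cells 4 fell in CKO and 3 in CTL, with sums of 31 to 38.7 CPM in CKO 6 h and 52 to 90.8 CPM in CKO 0 h, and of 30.9 to 43.4 CPM in CTL 6 h and 54.9 to 170 CPM in CTL 0 h. All of these markers were counted in each group. The 8 T cell markers fell as well, all 8 in each genotype. Of 5 tested erythroid and platelet markers 2 rose and 2 fell in CKO, and 2 rose and 1 fell in CTL. The CD4+ gate would remove most B cells, natural killer cells and CD8 T cells, and the part of such cells in the members' changes was not tested.

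**Figure D1:**
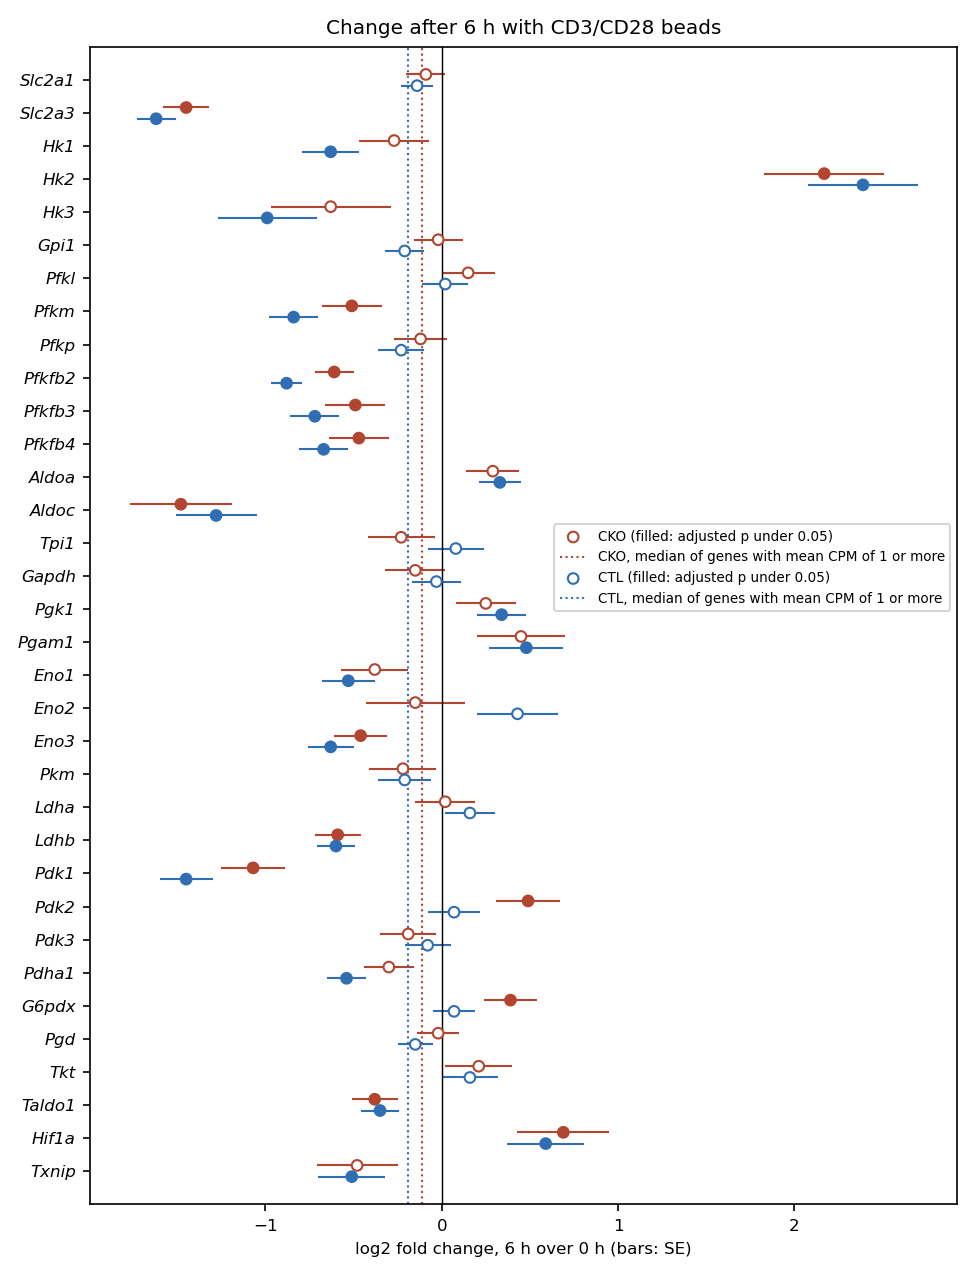
Log2 fold change at 6 h over 0 h for the 34 members (rows) with SE bars, in CKO (red) and CTL (blue) cells. Filled points have an adjusted p under 0.05 and dotted lines mark the median of genes with a mean of at least 1 CPM; Hk2 lies furthest right, at 2.17 in CKO and 2.39 in CTL.

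The 2 glucose transporters parted. Slc2a3 encodes GLUT3, the high-affinity transporter of neurons and lymphocytes (6:122727809-122801640, minus strand, GRCm38), and had 19.4, 23.9 and 25.5 CPM in CKO 6 h, against a lowest, median and highest of 56.2, 63.2 and 65.5 CPM in CKO 0 h. It had 17.4, 21.6, 22, 25.3 and 27.7 CPM in CTL 6 h, against 64.4, 70.6 and 77.7 CPM in CTL 0 h. Every 6 h library lay below every 0 h library. The change was -1.45 ± 0.13 log2 in CKO (SE, edgeR adjusted p = 2.1e-07) and -1.62 ± 0.11 in CTL (adjusted p = 1.08e-09). Slc2a1, which encodes the widely expressed transporter GLUT1, had 42.2, 44.9 and 51.9 CPM in CKO 6 h and 45, 52.8 and 57.9 CPM (lowest, median, highest) in CKO 0 h. It had 31.8, 41.8, 42.8, 45.1 and 50 CPM in CTL 6 h and 40.8, 44 and 53 CPM in CTL 0 h. The groups overlapped, and its changes of -0.09 ± 0.11 in CKO and -0.14 ± 0.09 in CTL were not called (edgeR adjusted p = 0.545 and 0.207).

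The hexokinases also moved apart. Hk2, the inducible hexokinase that binds mitochondria (6:82725025-82774454, minus strand), had 16.1, 17.2 and 46.8 CPM in CKO 6 h, against 4.03, 5.8 and 8.19 CPM (lowest, median, highest) in CKO 0 h. It had 17.6, 22.2, 24.9, 34.5 and 44.7 CPM in CTL 6 h, against 3.15, 5.08 and 8.73 CPM in CTL 0 h. All stimulated libraries lay above all unstimulated ones of their genotype. The change was 2.17 ± 0.34 log2 in CKO (edgeR adjusted p = 0.000126) and 2.39 ± 0.31 in CTL (adjusted p = 5.41e-06). Hk1, the constitutive hexokinase, changed by -0.27 ± 0.20 in CKO, which was not called (adjusted p = 0.306). In CTL it fell by 0.63 (SE 0.16, adjusted p = 0.00272), with 133 ± 39.1 CPM in CTL 6 h and 199 ± 36.9 CPM in CTL 0 h (SD, n = 5 and 6).

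Hk3, a hexokinase of myeloid cells, had 1.52, 1.62 and 2.25 CPM in CKO 6 h and 1.71, 2.43 and 4.35 CPM (lowest, median, highest) in CKO 0 h. It had 1.04, 1.11, 1.21, 1.28 and 1.57 CPM in CTL 6 h, against 1.71, 2.18 and 4.7 CPM in CTL 0 h. The CKO groups overlapped and the CTL groups did not, and the change was -0.63 ± 0.34 log2 in CKO (edgeR adjusted p = 0.163) and -0.99 ± 0.28 in CTL (adjusted p = 0.00526). The 10 myeloid markers, all counted in each group, summed to 36.6 to 79.4 CPM in CKO 6 h, 29.2 to 58.9 in CTL 6 h, 78 to 191 in CKO 0 h and 65.2 to 195 in CTL 0 h. The libraries numbered 5.6 held the highest sums at 0 h, 191 CPM in CKO and 195 CPM in CTL, and the highest Hk3 levels, 4.35 and 4.7 CPM. The CD4+ gate would remove most myeloid cells, and the part of any that remained in the Hk3 values was not tested.

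Phosphofructokinase 1 commits sugar to glycolysis, and of its 3 subunit genes the muscle form fell. Pfkm had 15, 19.7 and 20.3 CPM in CKO 6 h and 24.7, 26.9 and 30.1 CPM (lowest, median, highest) in CKO 0 h. It had 8.48, 14.7, 16.7, 17 and 17.1 CPM in CTL 6 h and 21.5, 25.9 and 30.3 CPM in CTL 0 h. No 6 h value reached the 0 h range of its genotype, and the change was -0.51 ± 0.17 log2 in CKO (edgeR adjusted p = 0.0289) and -0.84 ± 0.14 in CTL (adjusted p = 6.76e-05). The liver form Pfkl changed by 0.15 ± 0.15 in CKO and 0.02 ± 0.13 in CTL, and the platelet form Pfkp by -0.12 ± 0.15 and -0.23 ± 0.13, none of them called. Library 4.24 of CTL 6 h held the lowest value of all 3 genes in its group, and without it, on genes of at least 1 CPM, Pfkl was called higher in CTL (0.36, adjusted p = 0.000679).

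All 3 genes of the bifunctional enzymes that set fructose 2,6-bisphosphate, the activator of phosphofructokinase 1, fell in both genotypes. Pfkfb2 had 11.7, 12.6 and 13.6 CPM in CKO 6 h, against 17, 19.5 and 21.2 CPM (lowest, median, highest) in CKO 0 h. It had 9.56, 10.4, 10.6, 11.5 and 12.6 CPM in CTL 6 h, against 18.1, 20.7 and 21.5 CPM in CTL 0 h. The times did not overlap, and the change was -0.61 ± 0.11 log2 in CKO (edgeR adjusted p = 0.000524) and -0.88 ± 0.09 in CTL (adjusted p = 4.07e-07). Pfkfb3 fell by 0.49 in CKO (SE 0.17) and fell by 0.72 in CTL (SE 0.14), and Pfkfb4 fell by 0.47 in CKO (SE 0.17) and fell by 0.67 in CTL (SE 0.14). Their CKO calls, with adjusted p of 0.0365 and 0.0363, were lost on genes of at least 1 CPM (0.0525 and 0.0672).

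Aldolases cut the sugar bisphosphate into trioses, and the main one rose in CTL while the minor one fell in both genotypes. Aldoa had 401, 426 and 495 CPM in CKO 6 h and 307, 379 and 466 CPM (lowest, median, highest) in CKO 0 h. It had 418, 425, 440, 449 and 462 CPM in CTL 6 h and 270, 333 and 444 CPM in CTL 0 h. The times overlapped, and the change was 0.29 ± 0.15 log2 in CKO (edgeR adjusted p = 0.144) and 0.33 ± 0.12 in CTL (adjusted p = 0.025). The CTL call of Aldoa was lost in 6 of the 20 fits that left out 1 library, those without CTL 6 h 10.28, CKO 0 h 4.29, 5.6 or 9.20 and CTL 0 h 5.6 or 9.20, with the highest adjusted p, 0.187, at a change of 0.20 without CTL 0 h 5.6. Aldoc, the brain-type aldolase (11:78322968-78327781, plus strand), had 1.38, 1.87 and 2.34 CPM in CKO 6 h, against 4.2, 4.8 and 5.9 CPM in CKO 0 h. It had 0.966, 1.07, 1.07, 1.1 and 2.34 CPM in CTL 6 h, against 2.35, 3.2 and 3.97 CPM in CTL 0 h. Stimulated values lay below unstimulated ones in both genotypes, with a change of -1.48 ± 0.29 in CKO (adjusted p = 0.000891) and -1.28 ± 0.23 in CTL (adjusted p = 0.000116). The isomerase genes Gpi1 and Tpi1 were not called in either genotype, with changes between -0.23 and 0.08.

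In lower glycolysis, phosphoglycerate kinase and mutase rose in CTL and the enolase genes Eno1 and Eno3 fell there. Pgk1, the kinase, had 146, 157 and 188 CPM in CKO 6 h, against 115, 143 and 178 CPM (lowest, median, highest) in CKO 0 h, and its change of 0.25 ± 0.17 log2 was not called (edgeR adjusted p = 0.27). It had 118, 139, 158, 190 and 196 CPM in CTL 6 h, against 98.2, 123 and 158 CPM in CTL 0 h, a change of 0.34 ± 0.14 (adjusted p = 0.0414). The times overlapped in both genotypes. Pgam1, the mutase, had 27.9, 30.7 and 47.4 CPM in CKO 6 h, against 21.2, 29.5 and 33.5 CPM in CKO 0 h, a change of 0.45 ± 0.25 that was not called (adjusted p = 0.175). It had 18, 36.9, 40.3, 51.8 and 59.1 CPM in CTL 6 h, against 21.7, 29.5 and 35.5 CPM in CTL 0 h, a change of 0.48 ± 0.21 (adjusted p = 0.049). Its values overlapped too, and with the replicate number as a block neither gene was called in CTL (Pgk1 0.30, adjusted p = 0.0636, and Pgam1 0.38, adjusted p = 0.0722).

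Eno1, the main enolase, changed by -0.38 ± 0.19 log2 in CKO (edgeR adjusted p = 0.126) and fell by 0.53 in CTL (SE 0.15, adjusted p = 0.0059). On genes of at least 1 CPM the change of Eno1 in CTL was -0.31 (adjusted p = 0.0666). Eno3, the muscle-type enolase, fell by 0.46 in CKO (SE 0.15, adjusted p = 0.0259) and fell by 0.63 in CTL (SE 0.13, adjusted p = 0.000267), and its CKO call was lost with the replicate block (-0.35, adjusted p = 0.0505). Eno2, the neuron-type enolase, changed by -0.15 ± 0.28 in CKO and 0.43 ± 0.23 in CTL, not called. The replicate block called it in CTL (0.45, adjusted p = 0.0481). Gapdh, the dehydrogenase of the triose step, changed by -0.15 ± 0.17 in CKO and -0.03 ± 0.14 in CTL, and the pyruvate kinase gene Pkm by -0.22 ± 0.19 and -0.21 ± 0.15, none of them called.

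At the pyruvate branch, Ldha overlapped between times and the kinase gene Pdk1 fell. Ldha, the lactate-forming dehydrogenase subunit, had 403, 411 and 555 CPM in CKO 6 h and 410, 442 and 606 CPM (lowest, median, highest) in CKO 0 h. It had 385, 406, 472, 553 and 597 CPM in CTL 6 h and 343, 422 and 532 CPM in CTL 0 h. Its changes of 0.02 ± 0.17 log2 in CKO and 0.16 ± 0.14 in CTL were not called (edgeR adjusted p = 0.937 and 0.343). On genes of at least 1 CPM Ldha was called higher in CTL (0.37, adjusted p = 0.0224). Ldhb, the subunit that favours pyruvate, fell by 0.59 in CKO (SE 0.13, adjusted p = 0.00244) and fell by 0.60 in CTL (SE 0.11, adjusted p = 0.000108).

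Pdk1, whose product phosphorylates and silences pyruvate dehydrogenase (2:71873224-71903858, plus strand), had 111, 150 and 153 CPM in CKO 6 h, against 240, 297 and 396 CPM (lowest, median, highest) in CKO 0 h. It had 95.7, 142, 154, 161 and 165 CPM in CTL 6 h, against 358, 389 and 418 CPM in CTL 0 h. All stimulated libraries lay below all unstimulated ones of their genotype, with a change of -1.07 ± 0.18 log2 in CKO (edgeR adjusted p = 0.000263) and -1.45 ± 0.15 in CTL (adjusted p = 3.03e-07). Pdk2, a sister kinase, had 12.7, 20.1 and 20.1 CPM in CKO 6 h and 11.6, 13.2 and 16.7 CPM in CKO 0 h, and 7.48, 10.6, 11.8, 12.9 and 15 CPM in CTL 6 h and 9.06, 10.9 and 12.8 CPM in CTL 0 h. It rose by 0.49 ± 0.18 in CKO (adjusted p = 0.042) and changed by 0.07 ± 0.15 in CTL, and the difference of these responses was 0.43 ± 0.24 (adjusted p = 0.465). The CKO call of Pdk2 held in 15 of 31 alternatives and was lost without the CKO 0 h libraries 4.24 and 5.6 (0.41, adjusted p = 0.173). Pdk3 was not called in either genotype. Pdha1, the catalytic subunit of pyruvate dehydrogenase, changed by -0.30 ± 0.14 in CKO (adjusted p = 0.106; without CTL 6 h library 4.24, -0.32 with an adjusted p of 0.0231) and fell by 0.54 in CTL (SE 0.11, adjusted p = 0.000448).

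In the pentose phosphate pathway changes were small. G6pdx encodes glucose 6-phosphate dehydrogenase, the entry step, and had 51.5, 51.6 and 51.6 CPM in CKO 6 h, against 34.2, 39.6 and 51.4 CPM (lowest, median, highest) in CKO 0 h. The groups did not overlap, and the rise of 0.39 ± 0.15 log2 (edgeR adjusted p = 0.0439) was lost with the replicate block (0.34, adjusted p = 0.086) and without the CKO 0 h libraries 4.24 and 5.6 (0.27, adjusted p = 0.235). In CTL the change of G6pdx was 0.07 ± 0.12, not called, and 0.28 with an adjusted p of 0.0218 on genes of at least 1 CPM. Taldo1, transaldolase of the non-oxidative arm, fell by 0.38 in CKO (SE 0.13, adjusted p = 0.0281) and fell by 0.35 in CTL (SE 0.11, adjusted p = 0.00643). Both Taldo1 calls were lost on genes of at least 1 CPM (adjusted p = 0.0775 in CKO and 0.283 in CTL). Pgd, the other NADPH-forming enzyme, and Tkt, transketolase, were not called in either genotype, although on genes of at least 1 CPM Tkt was called higher in CTL (0.36, adjusted p = 0.041).

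The 2 regulators moved in opposite directions in CTL. Hif1a, the oxygen-regulated subunit of HIF-1 (12:73901375-73947530, plus strand), had 353, 449 and 554 CPM in CKO 6 h and 145, 300 and 479 CPM (lowest, median, highest) in CKO 0 h. It had 195, 295, 347, 351 and 388 CPM in CTL 6 h and 149, 209 and 250 CPM in CTL 0 h. The times overlapped in both genotypes, with a rise of 0.69 ± 0.26 log2 in CKO (edgeR adjusted p = 0.0495) and 0.59 ± 0.22 in CTL (adjusted p = 0.029). The CKO call of Hif1a was lost with the replicate block (0.43, adjusted p = 0.157).

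Txnip, the arrestin-like protein that binds thioredoxin and lowers glucose uptake, had 386, 666 and 730 CPM in CKO 6 h and 582, 878 and 980 CPM (lowest, median, highest) in CKO 0 h. It had 341, 348, 419, 516 and 593 CPM in CTL 6 h and 516, 630 and 795 CPM in CTL 0 h. The times overlapped, and the change was -0.48 ± 0.23 log2 in CKO (edgeR adjusted p = 0.113) and -0.51 ± 0.19 in CTL (adjusted p = 0.0222). The CTL call of Txnip was lost without library 4.24 (-0.41, adjusted p = 0.0756) and on genes of at least 1 CPM (-0.30, adjusted p = 0.148).

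**Figure D2:**
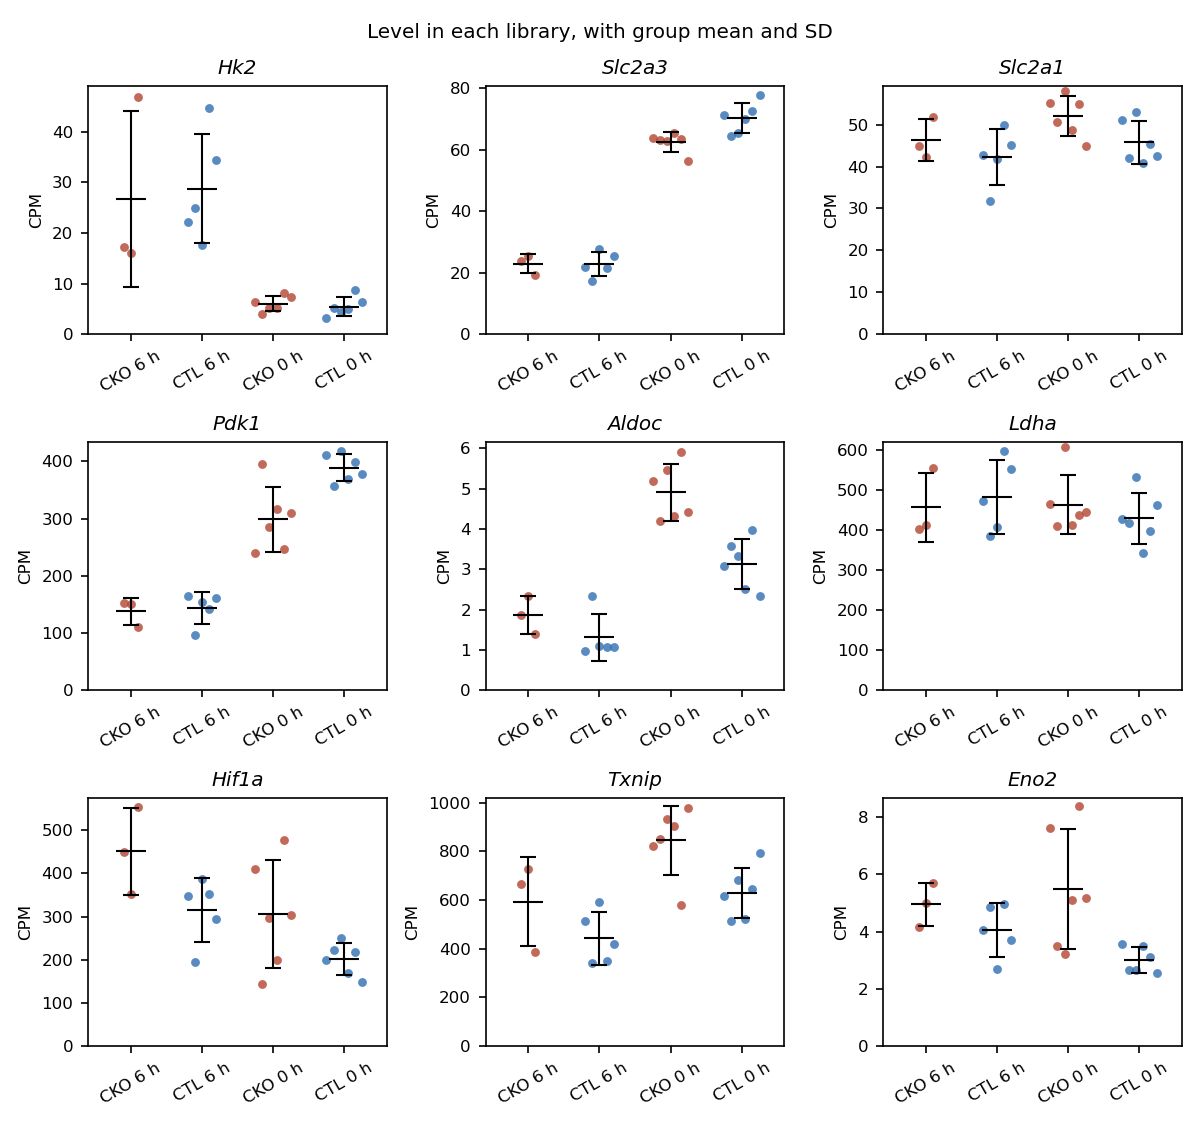
CPM in each library (points) for 9 members in CKO 6 h, CTL 6 h, CKO 0 h and CTL 0 h, with group mean and SD (bars). For Hk2 the 6 h libraries lie above the 0 h libraries of their genotype, for Slc2a3 and Pdk1 below, and for Slc2a1 and Ldha the times overlap.

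In CKO the count of 14 members called at 6 h rested on few libraries. Without the CKO 6 h library 5.13 it was 6, and without 11.18 it was 7. Of the CKO 0 h libraries, leaving out 4.29 or 5.6 gave 8 in each case and leaving out 9.20 or 11.18 gave 9 in each case. Without both CKO 0 h libraries whose sex label went against Xist it was 10, 1 higher and 9 lower. The same fit called 2 rises and 15 falls among the members in CTL, against 5 and 15 in the main fit. The 6 members Slc2a3, Hk2, Pdk1, Aldoc, Pfkfb2 and Ldhb were called in CKO and in CTL under all 31 alternative fits. With the CKO 0 h libraries 4.24 and 5.6 left out the CKO change was 1.97 log2 for Hk2, -1.46 for Slc2a3, -0.96 for Pdk1 and -1.6 for Aldoc. The calls of Pfkm (edgeR adjusted p = 0.0812), Pfkfb4 (0.104), Eno3 (0.128), Pdk2 (0.173), Hif1a (0.211) and G6pdx (0.235) were then lost, and Tpi1 (-0.46, 0.0437) and Pdk3 (-0.38, 0.0461) were called lower.

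The change from 0 h to 6 h with beads was not called different between the genotypes for any member. Differences in the 6 h change, CKO minus CTL, ran from -0.59 log2 for Eno2 to 0.43 for Pdk2, with a median of 0.11. Of all genes tested 0% were called, and none of the members had an unadjusted p under 0.05, against 9.7% of all genes. DESeq2 called 10 genes and 0 members. The smallest p-values among members were those of Pfkfb2 (0.27 ± 0.14), Pdk2 (0.43 ± 0.24) and Pdk1 (0.38 ± 0.23), each with an edgeR adjusted p of 0.465. The 95% interval of the difference, not adjusted for the number of genes, lay within 2-fold for 31 members, all but Hk2, Hk3 and Eno2, and within 1.5-fold for 15. For Hk2 it ran from -1.19 to 0.77 log2.

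Unstimulated CKO and CTL cells held close levels of most members. None was called at 0 h, where 0.424% of all genes were, and 4 had an unadjusted p under 0.05, against 7.54% of all genes. Differences ran from -0.44 to 0.88 log2 with a median of 0.04, beside 0.05 over all genes tested. The 95% interval lay within 2-fold for 32 members, all but Aldoc and Eno2, and within 1.5-fold for 25. It ran from -0.13 to 0.28 for Slc2a1, from -0.27 to 0.35 for Ldha and from -0.60 to 0.75 for Hk2.

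The 4 members were Eno2, Aldoc, Pdk1 and Pfkfb4. Eno2 had 3.21, 3.48, 5.1, 5.16, 7.6 and 8.37 CPM in CKO 0 h, against 2.54, 2.65, 2.67, 3.11, 3.48 and 3.55 CPM in CTL 0 h. The groups overlapped, with a difference of 0.88 ± 0.25 log2 (edgeR adjusted p = 0.182). Eno2 was called with the replicate number as a block (0.95 ± 0.22, adjusted p = 0.0459) and by DESeq2 (adjusted p = 0.0357), and under no other of the 31 alternatives. With the block and the Ddx3y level in place of the sex label it was not called (0.84, adjusted p = 0.122). Aldoc had 4.2, 4.31, 4.41, 5.19, 5.47 and 5.9 CPM in CKO 0 h, against 2.35, 2.52, 3.08, 3.33, 3.57 and 3.97 CPM in CTL 0 h. Every CKO library lay above every CTL library, as also for Pfkfb4 (18.6 to 25.2 CPM in CKO 0 h, 12.8 to 18 CPM in CTL 0 h), a pattern that 0.951% of all genes showed. The difference was 0.74 ± 0.23 for Aldoc and 0.36 ± 0.14 for Pfkfb4 (edgeR adjusted p = 0.247 and 0.52).

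Pdk1 ran the other way, with 240, 246, 286, 309, 317 and 396 CPM in CKO 0 h, against 358, 370, 378, 400, 412 and 418 CPM in CTL 0 h. The groups overlapped, and the difference of -0.44 ± 0.15 log2 was not called (edgeR adjusted p = 0.34). Without libraries 4.24 and 5.6 of CKO 0 h, 0 members were called at 0 h, and the difference was -0.60 for Pdk1, 1.01 for Eno2 and 0.82 for Aldoc. Hif1a ranged over 145 to 479 CPM in CKO 0 h and 149 to 250 CPM in CTL 0 h, a difference of 0.39 ± 0.24 (adjusted p = 0.798). Its lowest CKO values, 145 and 199 CPM, were those of the libraries whose sex label went against Xist. Txnip ranged over 582 to 980 CPM in CKO 0 h and 516 to 795 CPM in CTL 0 h, a difference of 0.40 ± 0.20 (adjusted p = 0.68).

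At 6 h again no member was called, where 0.292% of all genes were, and 2 had an unadjusted p under 0.05, against 12.7% of all genes. Differences ran from -0.24 to 0.63 log2 with a median of 0.10, beside -0.29 over all genes tested and 0.06 over those of at least 1 CPM. Pdk2 had 12.7, 20.1 and 20.1 CPM in CKO 6 h, against 7.48, 10.6, 11.8, 12.9 and 15 CPM in CTL 6 h. Pfkfb4 had 12.5, 15.9 and 16 CPM in CKO 6 h, against 7.31, 8.96, 9.4, 11.9 and 12.6 CPM in CTL 6 h. Both overlapped only at the lowest CKO library, 11.18, and differed by 0.63 ± 0.18 and 0.56 ± 0.16 log2 (edgeR adjusted p = 0.199 and 0.199). DESeq2 called both (Pdk2 adjusted p = 0.0369, Pfkfb4 adjusted p = 0.0367), and without CKO 6 h library 11.18 edgeR called Pdk2.

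Aldoc, next by p, differed by 0.54 ± 0.27 log2 at 6 h (edgeR adjusted p = 0.395). Pdha1 was the 1 member whose CKO libraries all lay above the CTL libraries, 115, 117 and 122 CPM in CKO 6 h and 74.2, 107, 107, 113 and 114 CPM in CTL 6 h, as 3.65% of all genes did. Its difference was 0.19 ± 0.14 (adjusted p = 0.459). The 95% interval lay within 2-fold for 30 members, all but Hk3, Aldoc, Pdk2 and Hif1a, and within 1.5-fold for 23. It ran from -0.12 to 0.35 for Slc2a1, from -0.45 to 0.27 for Ldha and from -0.90 to 0.62 for Hk2.

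Of 4 markers of regulatory T cells, 2 passed the test at 6 h and 1 passed it at 0 h, each with a higher level in CKO than in CTL. The markers, all counted in each group, summed to 384 to 585 CPM in CKO 6 h and 232 to 419 CPM in CTL 6 h, and to 191 to 589 CPM in CKO 0 h and 136 to 257 CPM in CTL 0 h. Gpr83 was called at 0 h (1.18 ± 0.23 log2, edgeR adjusted p = 0.0227) and at 6 h (1.35 ± 0.26, adjusted p = 0.0244), and Foxp3, the lineage factor, at 6 h (1.29 ± 0.27, adjusted p = 0.0488), and these 3 calls held without the CKO 0 h libraries 4.24 and 5.6. Foxp3 at 0 h (0.51 ± 0.25), Ikzf2 (0.87 ± 0.30 at 6 h, 0.87 ± 0.27 at 0 h) and Il2ra (0.14 ± 0.42 at 6 h, 0.52 ± 0.39 at 0 h) were not called, and the sums of the groups overlapped. The CKO 0 h libraries with the highest sums, 4.29 with 589 CPM and 9.20 with 538 CPM, also held the highest Eno2 (7.6 and 8.37 CPM) and Hif1a (410 and 479 CPM) of their group. The CD25- gate would remove most regulatory T cells, and the part of any that remained in these values was not tested.

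**Figure D3:**
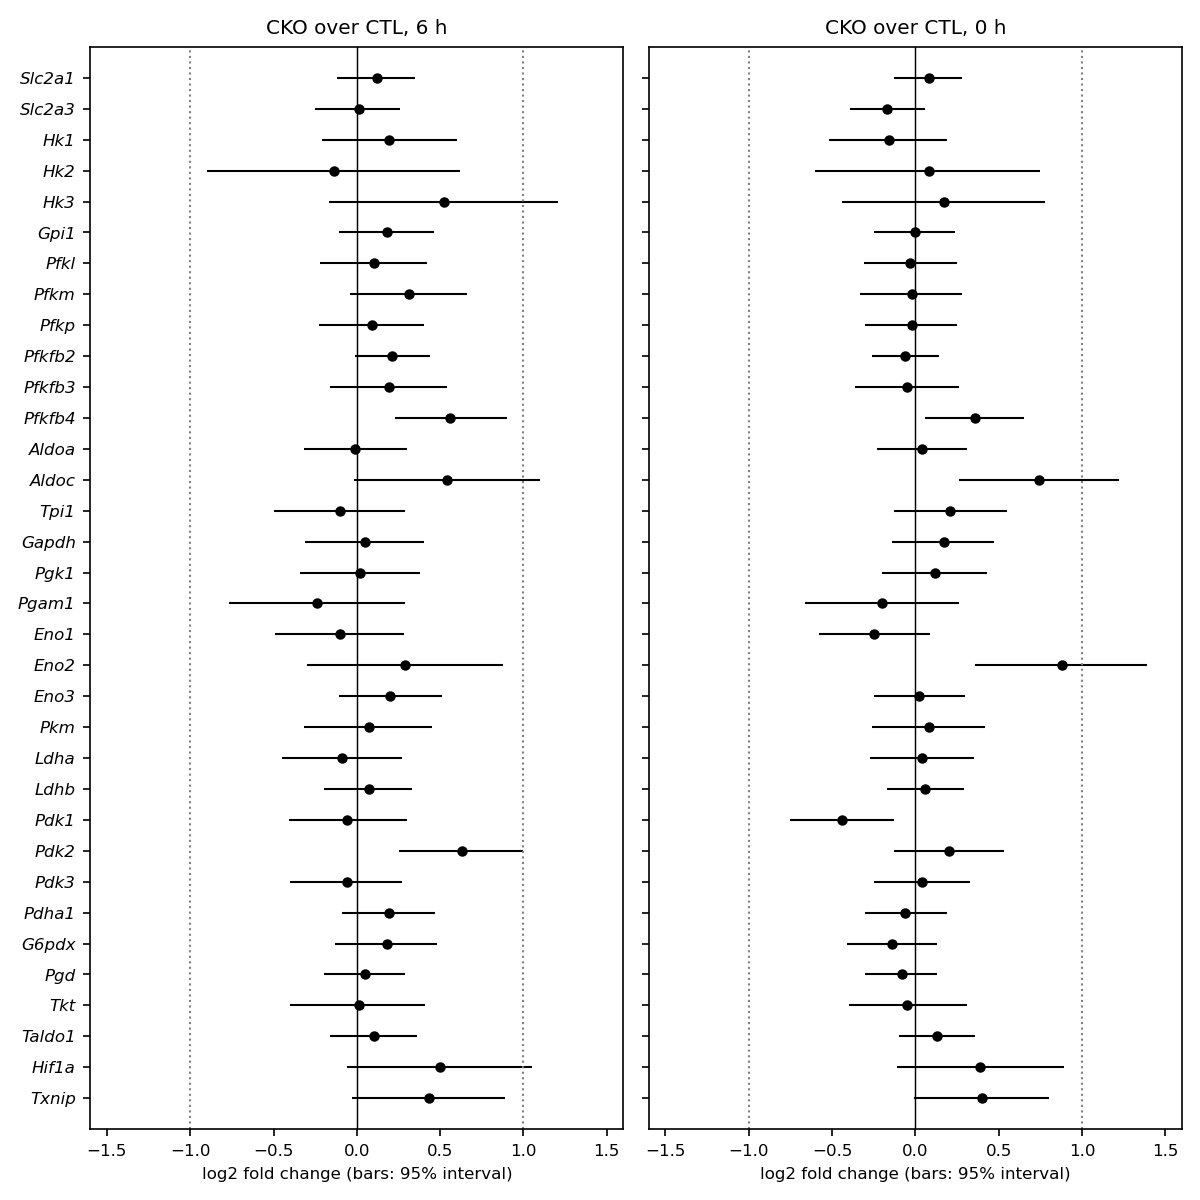
Log2 fold change of CKO over CTL for the 34 members (rows) at 6 h (left) and 0 h (right), with 95% intervals from the model. Dotted lines mark 2-fold in either direction, within which lie the intervals of 30 members at 6 h and 32 at 0 h.

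Within some gene families the shares of isoenzymes differed between times. Shares were taken from CPM per kilobase of union exon length, as a description without a test. Those of Pfkfb3 and Eno1 stayed close. Pfkfb3 made up 60.0% of its family in CKO 6 h and 60.1% in CKO 0 h, and 62.8% and 62.9% in CTL. Eno1 made up 81.6% of the enolases in CKO 6 h and 80.9% in CKO 0 h, and 84.4% and 83.4% in CTL. Slc2a1 made up 80.5% ± 3.75 of the transporter pair in CKO 6 h and 63.2% ± 1.77 in CKO 0 h (SD, n = 3 and 6), and 79.2% ± 2.53 in CTL 6 h and 57.3% ± 3.44 in CTL 0 h (n = 5 and 6). Hk2 made up 19% ± 10.3 of the hexokinases in CKO 6 h and 4.05% ± 0.814 in CKO 0 h, and 24.1% ± 9.33 in CTL 6 h and 3.77% ± 1.5 in CTL 0 h. Hk1 remained the larger part in every library. Pdk1 made up 59.3% ± 1.94 of the 3 kinases in CKO 6 h and 76% ± 5.7 in CKO 0 h, and 63.6% ± 3.83 in CTL 6 h and 82.7% ± 1.58 in CTL 0 h. Pdk2 held 18.5% ± 2.08 in CKO 6 h and 12.5% ± 1.63 in CTL 6 h, and 8.59% ± 1.78 in CKO 0 h and 5.61% ± 0.544 in CTL 0 h, with no overlap between genotypes at either time. That was not particular to Pdk2. At 6 h the genotypes did not overlap for Eno1 (80.8% to 82.3% in CKO, 82.5% to 85.6% in CTL) or Eno3, nor at 0 h for the aldolase share of Aldoc. The length used sets such shares, and with the longest transcript 42 of 84 group shares moved by over 1 SD, Hk2 then holding 11.6% in CKO 6 h, 15.1% in CTL 6 h, 2.27% in CKO 0 h and 2.12% in CTL 0 h.

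**Figure D4:**
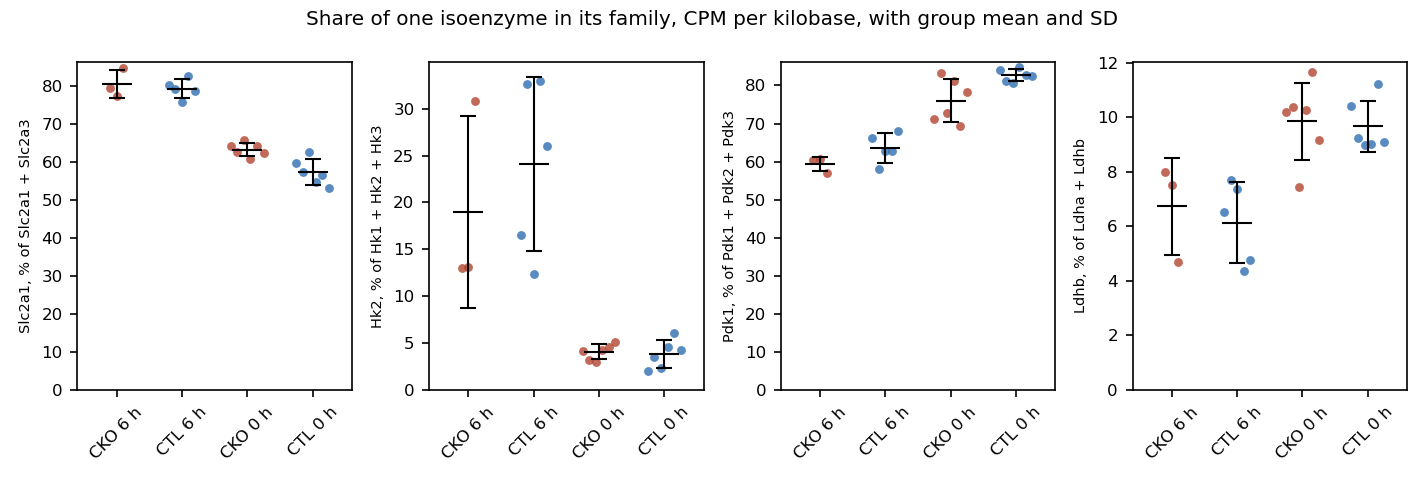
Share of Slc2a1, Hk2, Pdk1 and Ldhb in its gene family (percent of the family's summed CPM per kilobase) in each library, with group mean and SD, for CKO 6 h, CTL 6 h, CKO 0 h and CTL 0 h. Slc2a1 and Hk2 lie higher at 6 h and Pdk1 lower, with no overlap between times within a genotype.

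Levels between genes were compared per kilobase of union exon length. On that scale Txnip averaged 201 CPM per kilobase in CTL 0 h, Ldha 130, Pkm 127, Aldoa 119 and Gapdh 103. Their order depends on the length taken, and per kilobase of the longest transcript Pkm stood at 262, Ldha at 237, Eno1 at 232, Aldoa at 224, Txnip at 223 and Gapdh at 130, a setting added after the data were seen. Aldoc, Hk2, Hk3 and Eno2 were the 4 lowest members in CTL 0 h with either length, at 0.961, 0.912, 0.69 and 0.638 CPM per kilobase of union exon length, and their order changed with the longest transcript. In CTL 6 h, Hk2 stood at 4.82, Aldoa at 151 and Txnip at 142 CPM per kilobase of union exon length.

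Genes next to these pathways were read from lists of their own. Of all genes tested, 32.8% were called at 6 h in CKO (19.6% higher, 13.1% lower) and 63.4% in CTL (41.6% higher, 21.7% lower). Of genes of at least 1 CPM, 33.2% were called in CKO (11% higher, 22.2% lower) and 56.4% in CTL (18.2% higher, 38.2% lower). The counts of every list below are to be read beside these shares. Of the 9 other hexose transporters tested, 1 rose and 1 fell in CKO and 7 rose and 2 fell in CTL. Slc2a6, a lysosomal transporter, rose by 1.85 ± 0.33 log2 in CKO and 2.12 ± 0.30 in CTL, with 21.9 ± 3.6 CPM in CKO 6 h and 5.99 ± 2.68 CPM in CKO 0 h (SD, n = 3 and 6). Slc2a9, a urate transporter, fell by 0.69 in CKO and fell by 0.88 in CTL. With a mean of at least 1 CPM asked for, 3 of the list were tested, 1 higher and 1 lower in each genotype. Of 5 lactate export genes 2 rose in CKO and 4 in CTL and none fell. One of the list, Slc16a7, averaged 2.84 CPM in CTL 6 h with an SD of 4.52, above its mean, and 0.764 CPM in CTL 0 h. Slc16a1, the monocarboxylate transporter MCT1, rose by 0.93 ± 0.23 in CKO and 1.17 ± 0.20 in CTL, and Slc16a3, the lactate exporter MCT4, by 0.89 ± 0.31 and 0.75 ± 0.26. The CKO call of Slc16a3 was lost without the CKO 0 h libraries 4.24 and 5.6 (0.64, adjusted p = 0.0838).

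Among 11 other pentose phosphate genes 1 rose and 4 fell in CKO and 2 rose and 4 fell in CTL. Prps1, which makes the ribose donor of nucleotide synthesis, rose by 1.34 ± 0.15 log2 in CKO and 1.49 ± 0.13 in CTL, while its paralog Prps2 fell by 0.97 in CKO and fell by 1.16 in CTL. H6pd, the glucose 6-phosphate dehydrogenase of the endoplasmic reticulum, fell by 1.37 in CKO and fell by 1.85 in CTL. Of 11 tested genes of pyruvate entry 1 rose and 3 fell in CKO and 4 rose and 3 fell in CTL, among them Pcx, pyruvate carboxylase, which fell by 0.58 in CKO and fell by 0.87 in CTL. Without the CKO 0 h libraries 4.24 and 5.6, 0 rises and 2 falls of pyruvate entry genes were called in CKO. Of the genes named from these lists, each kept its CKO time call in that fit except Slc16a3.

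Of 16 tested other enzymes of glycolysis and gluconeogenesis 3 rose and 4 fell in CKO and 5 rose and 5 fell in CTL. Galm, galactose mutarotase, fell by 0.88 log2 in CKO and fell by 1.23 in CTL. Pklr, the liver and red-cell pyruvate kinase, rose at low levels, 0.696 ± 0.103 CPM in CKO 6 h and 1.47 ± 1.6 CPM in CTL 6 h (SD, n = 3 and 5). Pck2, the mitochondrial enzyme that makes phosphoenolpyruvate from oxaloacetate, was the 1 gene of these lists called between genotypes. It averaged 36 ± 3.95 CPM in CKO 6 h and 21 ± 5.12 CPM in CTL 6 h (SD, n = 3 and 5), a difference of 0.78 ± 0.16 (edgeR adjusted p = 0.0368), and its call was lost without the CKO 0 h libraries 4.24 and 5.6 (0.83, adjusted p = 0.0565).

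Of 18 HIF-1 targets outside glucose metabolism 7 rose and 4 fell in CKO and 6 rose and 5 fell in CTL. Ndrg1 rose by 1.57 ± 0.19 log2 in CKO and 1.56 ± 0.16 in CTL, and the growth factor gene Vegfa by 1.65 ± 0.27 and 1.70 ± 0.24. Ddit4, an inhibitor of mTORC1, fell by 3.62 in CKO and fell by 3.51 in CTL, with 30.6 ± 4.05 CPM in CKO 6 h and 432 ± 110 CPM in CKO 0 h (SD, n = 3 and 6). Of 9 genes that control HIF, 2 fell in CKO and 6 in CTL and none rose, and Egln1, the prolyl hydroxylase that marks HIF for destruction, fell by 0.40 in CKO and fell by 0.52 in CTL. Among 15 relatives of Txnip and partners of MondoA-Mlx 4 rose and 2 fell in CKO and 5 rose and 7 fell in CTL. The thioredoxin gene Txn1 rose by 0.93 ± 0.19 in CKO and 1.45 ± 0.16 in CTL, and the partner gene Mlx fell by 0.74 in CKO and fell by 0.89 in CTL.

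Some members share sequence or place with other genes, so their counts are uncertain. Gapdh had 95 near-identical copies in other genes, of at least 95% identity over at least 150 bases, whose counts came to 1.44% of those of Gapdh in the lowest library and 20.2% in the highest, which was CTL 6 h 4.24. For Eno1 the share ran from 0.229% to 9.87% over 4 copies. On the strand of the member, Gm49759 covered 15.3% of the exons of Pkm and Gm29427 17.4% of those of Pfkfb2. On the opposite strand, Ikbkg covered 13.6% of G6pdx, Gm15441 19.4% of Txnip and Map3k15 16.1% of Pdha1. The library kit marks strand, and the strand setting of the counting is not given in the sources used here.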

How the data were processed

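The deposited values are raw read counts per gene. Per the submitters' processing notes, the authors used Trimmomatic 0.36, STAR 2.5.2b and featureCounts of Subread 1.5.2 with mouse build GRCm38; the role of each is not stated there. Per the labels' protocols, stranded mRNA libraries were made from total RNA. Of the 49315 gene IDs, 49056 matched GENCODE M21.

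From the counts, edgeR 4.0.16 (R 4.3.3) fitted a robust quasi-likelihood model with TMM scaling to the 28082 genes that passed filterByExpr (count 10, total 15), with group and sex label as terms and all 20 libraries. CPM use TMM-scaled totals. The model was also run on simulated counts. These held no sex effect and no shared deviation of libraries of 1 number, so that run cannot show how the fit handles either. Depth sets precision: CTL 6 h library 4.24 held 26427467 counts and each of the others 62402807 to 85608113. No pair of libraries of 1 group was a duplicate (43 pairs, chi-square per degree of freedom 21.5 to 303).

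The members and gene lists were chosen with earlier results of these data known. The rule for library values took up to 6 of the largest called rises (5 were called) and of the largest called falls at 6 h in CTL, the 3 smallest p-values of each genotype comparison and of the response difference, and Slc2a1, Hk2, Ldha, Hif1a and Txnip; G6pdx and Pdha1 were added after their values were seen; of each pathway list, up to 3 called genes of smallest adjusted p are named. Libraries of 1 number deviated together in the groups compared (correlation 0.18 to 0.63 over 5, 5, 3 and 1 pairs). The replicate block takes these numbers as pairs. The main fit has no such term, so its p-values and intervals leave this pairing out. The alternatives were RLE scaling, other filters, DESeq2 1.42.0, other sex terms, the block and left-out libraries. Copies were found with BLAST 2.17.0. Figures were drawn with matplotlib 3.10.9.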

Additional observations from a re-analysis of the deposited data

Results flagged for a closer look

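Each of the 34 members was checked in the 3 groups of 5 or 6 libraries, which gave 102 groups of values, and 11 had a library far from the others by Dixon's test, where chance gives about 1 in 20. Of these, 5 stood in CTL 6 h library 4.24, the least deep one. It was the lowest of its group for Pfkl at 46.3 CPM (91.5 CPM in the nearest), Pfkm at 8.48 CPM (14.7 CPM in the nearest), Pfkp at 102 CPM (171 CPM in the nearest) and Pdha1 at 74.2 CPM (107 CPM in the nearest), and the highest for Aldoc at 2.34 CPM (1.1 CPM in the nearest). In CKO 0 h library 5.13 the highest values were those of Ldha at 606 CPM (464 CPM in the nearest), Pdha1 at 186 CPM (149 CPM in the nearest), Tkt at 205 CPM (155 CPM in the nearest) and Taldo1 at 186 CPM (141 CPM in the nearest). Slc2a3 was lowest in CKO 0 h library 11.18 at 56.2 CPM (62.6 CPM in the nearest). Hk3 was highest in CTL 0 h library 5.6 at 4.7 CPM (2.56 CPM in the nearest).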

How the results depend on the processing

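No member changed direction among its called values. The replicate number as a block called 1 member at 0 h (Eno2), 11 in the CKO response and 19 in the CTL response, and over all genes it called 290 at 0 h where the fit without it called 119. DESeq2 called 1 member at 0 h and 2 at 6 h, where edgeR called 0. With the Ddx3y level in place of the sex label, 0 members and 233 genes were called at 0 h. Leaving out each library in turn gave 0 to 1 members at 6 h. For the CKO response, where 14 members were called, RLE scaling gave 9, no filter beyond 1 count gave 8, and leaving out each library gave 6 (without CKO 6 h 5.13) to 15 (without CTL 6 h 4.24). For the CTL response all alternatives gave 16 to 21 members, against 20. The cause of these moves was not tested. Of the 31 alternatives, the CKO calls held in 15 for Pdk2, 13 for G6pdx and 11 for Hif1a, and the CTL calls in 11 for Pgam1, 16 for Pgk1, 23 for Aldoa, 23 for Hif1a and 26 for Txnip. On genes of at least 1 CPM without CTL 6 h 4.24, the CTL calls of Hk1 (adjusted p = 0.0644), Hk3 (0.0574), Eno1 (0.129) and Txnip (0.298) were lost. The response difference called 0 members under every alternative.

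Over all genes, calls ran from 49 (without CTL 0 h 4.29) to 421 (DESeq2) at 0 h, from 8 (the compared groups alone) to 438 (DESeq2) at 6 h, from 4848 (without CKO 6 h 11.18) to 13607 (Ddx3y level with the block) in CKO and from 7325 (genes of at least 1 CPM without CTL 6 h 4.24) to 22588 (no filter) in CTL. On genes of at least 1 CPM without CTL 6 h 4.24 the split of the members was 7 higher and 7 lower in CKO and 10 and 10 in CTL; this setting and the block with Ddx3y level were added after the data were seen. With 3 CKO libraries at 6 h, leaving 1 out leaves 2. Members at 1 to 5 CPM (Aldoc, Hk3, Eno2) rest on the fewest counts.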

Other observations

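Eno1b, a near-identical copy of the enolase gene Eno1, split the libraries into separate clusters. It had 647 to 2846 counts in 14 libraries and 20 to 37 counts in the other 6. The 6 were CTL 6 h 5.13 with 31 counts and 10.28 with 37, CKO 0 h 9.20 with 35, and CTL 0 h 5.13 with 33, 5.6 with 20 and 10.28 with 30. Libraries of 1 genotype and 1 number fell in the same cluster at both times where both were present. The clusters cross genotype and time unevenly, with CKO 0 h 9.20 the only CKO library among the 6. Eno1b matched Eno1 over up to 1736 bases, with a highest identity of 100.0%. Eno1 and Eno1b summed to 323 to 335 CPM in CKO 6 h and 281 to 392 CPM in CTL 6 h. At 0 h they summed to 351 to 577 CPM in CKO and 344 to 634 CPM in CTL. The part of Eno1b in the genotype differences of Eno1 was not tested, nor was any explanation of the clusters.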
